A study of Mus musculus with 19 samples.

Results

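The HOX cluster genes were examined as targets of SOX3, a transcription factor of the SRY-related HMG box family that is produced in undifferentiated spermatogonia, the stem and progenitor cells of the male germline. The set was a list of 38 named genes lying in 4 clusters (10 in HoxA, 10 in HoxB, 9 in HoxC and 9 in HoxD), out of 26182 mouse genes with a curated RefSeq transcript, and the members are named by family and cluster, a choice made with earlier results of these data known. SOX3 binding had been mapped by chromatin immunoprecipitation and sequencing (ChIP-seq) in whole mouse testis at postnatal day 7 (P7), with antibodies listed as SOX3 (SCBT, sc-101155, and EMD Millipore, AB5772). The series has 19 samples, and the 4 used here were the 2 replicates of SOX3 ChIP-seq and the 2 of SOX3 ChIP-nexus, an exonuclease variant that trims the fragment to the bound position. No untreated, knockout or other-tissue sample entered, so there was 1 condition with 2 replicates, described in the study as independent biological replicates on a C57BL/6J background with tubules of several animals pooled. Chromatin of the whole testis mixes germ cells with Sertoli, Leydig and other somatic cells. The peak lists alone do not assign a peak to a cell type. The study describes SOX3 as specific to undifferentiated spermatogonia within the testis, stained it in sections at P7, and reads these peaks as binding there. The files hold no expression values with which to check the tissue. Replicate 1 listed 58351 peaks and replicate 2 listed 38832, and since the files hold peaks and no read counts, no counting interval was given. By the study's own read totals, whose values are not used here, the replicate with fewer peaks was the more deeply sequenced.

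HOX genes encode homeodomain transcription factors that give cells their position along the body axis. Within a cluster they are transcribed from the same strand and are switched on in the order in which they lie, the low-numbered (anterior) genes at the head end and the high-numbered (posterior) genes toward the tail, the limbs and the genital tract. Outside their domains the clusters are textbook targets of the Polycomb complexes, which cover them with the repressive mark H3K27me3, and they are dense in CpG islands, stretches rich in unmethylated CpG dinucleotides that mark most promoters.

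A promoter peak was a peak overlapping the 2 kb either side of a start site, and its strength was its q score, the false discovery rate given by the peak caller on a scale of minus 10 times its log10; the lists start at a q score of 30. In replicate 1, 29 of the 38 HOX genes (76.3%) had a promoter peak, where 62.7% of all genes did. In replicate 2, 16 (42.1%) had one, where 54.7% of all genes did. A peak was present in both replicates at 15 genes (39.5%), against 52.2% of all genes, and at 10 of these 15 the peaks of the replicates overlapped. These 10 were Hoxa4, Hoxa5, Hoxa13, Hoxb9, Hoxc5, Hoxc13, Hoxd3, Hoxd8, Hoxd9 and Hoxd10. Most HOX peaks were weak. At a q score above 60, replicate 1 retained 6 of the 38 genes (15.8%; 50.1% of all genes), replicate 2 retained 1 (2.63%; 35.6% of all genes), and both replicates together 1, Hoxd8 (35.2% of all genes). The median promoter score over the 38 genes was 41.4 in replicate 1 and 0 in replicate 2, while the other genes had medians of 60.2 and 35.2.

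**Figure D1:**
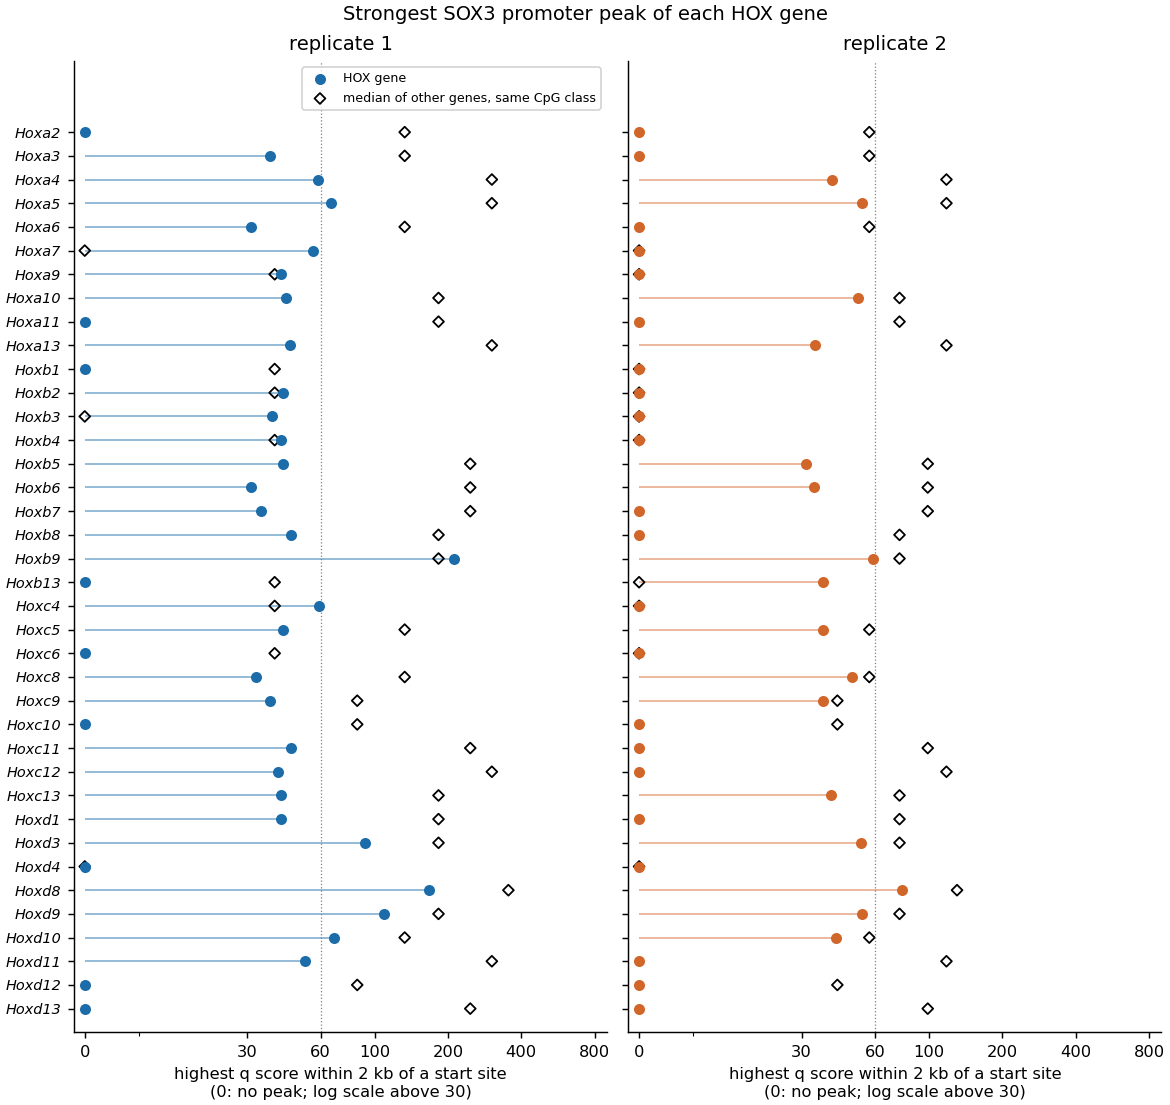
The highest q score within 2 kb of a start site is plotted for each HOX gene in replicate 1 (left, blue) and replicate 2 (right, orange), with 0 for no peak and a log scale above 30. Open diamonds are the median of the other genes of the same CpG class and the dotted line marks 60; most HOX points lie to the left of their diamond, and only Hoxd8 is to the right of the line in both replicates.

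Among promoters of the listed HOX genes, the strongest reproducible signal lay in the middle of the HoxD cluster, where 4 neighbouring genes carried overlapping peaks in both replicates. Hoxd8 (chr2:74704615-74707933, plus strand, mm10), a gene of the trunk axis, had a peak with a q score of 167 in replicate 1 and 77.7 in replicate 2. Both peaks spanned its start sites, were 2379 and 2477 bases wide and shared 2091 bases, and their log2 ratios of ChIP over input were 3.93 and 3.12. They ranked at 11.7% and 16.3% of their lists from the top. The same peaks also covered the start of the long noncoding RNA gene Gm38462, 65 bases away on the other strand, so the 2 promoters cannot be told apart.

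Hoxd9 (chr2:74697763-74700208), which patterns the lumbar and sacral axis and the forelimb with its neighbours, had scores of 109.5 and 53.3. Its replicate 1 peak was 5339 bases wide and enclosed the whole of the 968-base peak of replicate 2. Hoxd3 (chr2:74711993-74748271), required for the vertebrae at the top of the neck, had scores of 91.0 and 52.8. Hoxd10 (chr2:74691891-74695106), a gene of the hindlimb and lumbar motor neurons, had scores of 68.4 and 41.5. At all 4 genes the peaks covered the start site in both replicates, and replicate 1 gave the higher score.

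Outside HoxD, the highest single score of all 38 genes was at Hoxb9 (chr11:96271330-96276595), a gene of the thoracic skeleton. Its replicate 1 peak scored 211 and was 6362 bases wide, the widest in the 4 clusters, whereas in replicate 2 the region was split into separate peaks, the best with a score of 58.9. Hoxa5 (chr6:52201754-52204587, minus strand), which is needed for the lung and the cervical and thoracic vertebrae, scored 66.2 and 53.0. Its 2 best peaks lay on either side of the start site, and each overlapped a weaker peak of the other replicate (36.5 in replicate 2 and 35.7 in replicate 1). Hoxa4 (chr6:52189682-52191703), a gene of the neck vertebrae, scored 58.4 and 40.03.

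The remaining 3 overlapping pairs had scores below 45 in both replicates. Hoxa13 (chr6:52258853-52260880), needed for the digits and the urogenital tract, scored 44.8 and 34.0. Hoxc5 (chr15:103014008-103017429) scored 42.2 and 36.6, from peaks 827 and 1448 bases away from its start. Hoxc13 (chr15:102921131-102928814), which controls hair and nail growth, scored 41.2 and 39.5 with both peaks on its start site. Thus 4 of the 10 promoters with overlapping peaks were in HoxD, 3 in HoxA, 2 in HoxC and 1 in HoxB. Any shared base counted as overlap here. At Hoxa13 (300 shared bases) and Hoxc5 (277), neither replicate's peak was covered to 50% by a peak of the other.

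Promoter sequences are shown for 3 genes with a reproducible peak of different strength (Hoxd8, Hoxd9 and Hoxa5), for the weakly bound Hoxa13, and for Hoxd13 and Hoxd12, which had no peak in either replicate. Each is the 250 bases before the start site from the RefSeq promoter table of GRCm38.p6 (mm10), written 5′ to 3′ on the gene's strand with every CpG in capitals. The windows are chr2:74704365-74704614 (plus) for Hoxd8, chr2:74697513-74697762 (plus) for Hoxd9, chr6:52204588-52204837 (minus) for Hoxa5, chr6:52260881-52261130 (minus) for Hoxa13, chr2:74667975-74668224 (plus) for Hoxd13 and chr2:74674763-74675012 (plus) for Hoxd12.
Hoxd8: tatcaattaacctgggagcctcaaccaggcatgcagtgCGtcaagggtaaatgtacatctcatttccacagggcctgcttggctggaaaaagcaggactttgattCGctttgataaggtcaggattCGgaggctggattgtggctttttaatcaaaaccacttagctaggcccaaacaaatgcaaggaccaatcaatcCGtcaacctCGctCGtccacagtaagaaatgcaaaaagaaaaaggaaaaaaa
Hoxd9: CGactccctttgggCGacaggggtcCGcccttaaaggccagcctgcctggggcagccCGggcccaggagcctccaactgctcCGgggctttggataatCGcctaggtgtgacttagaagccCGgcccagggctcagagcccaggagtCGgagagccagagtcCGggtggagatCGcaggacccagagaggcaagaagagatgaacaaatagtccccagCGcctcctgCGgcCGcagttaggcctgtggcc
Hoxa5: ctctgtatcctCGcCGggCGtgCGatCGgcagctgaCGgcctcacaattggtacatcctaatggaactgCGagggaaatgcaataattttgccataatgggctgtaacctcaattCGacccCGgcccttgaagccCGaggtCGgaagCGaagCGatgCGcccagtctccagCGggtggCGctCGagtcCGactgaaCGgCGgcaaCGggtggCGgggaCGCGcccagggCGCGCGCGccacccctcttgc
Hoxa13: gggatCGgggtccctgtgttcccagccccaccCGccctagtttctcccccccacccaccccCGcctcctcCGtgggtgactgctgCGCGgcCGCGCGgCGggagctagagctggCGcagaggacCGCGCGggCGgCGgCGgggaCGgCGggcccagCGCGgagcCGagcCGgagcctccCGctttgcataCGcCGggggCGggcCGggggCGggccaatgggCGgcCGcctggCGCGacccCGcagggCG
Hoxd13: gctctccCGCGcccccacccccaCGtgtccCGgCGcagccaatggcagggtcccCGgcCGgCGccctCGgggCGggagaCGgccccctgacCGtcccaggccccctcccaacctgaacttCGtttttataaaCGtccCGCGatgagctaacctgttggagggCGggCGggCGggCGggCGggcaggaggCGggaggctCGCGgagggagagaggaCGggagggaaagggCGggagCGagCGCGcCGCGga
Hoxd12: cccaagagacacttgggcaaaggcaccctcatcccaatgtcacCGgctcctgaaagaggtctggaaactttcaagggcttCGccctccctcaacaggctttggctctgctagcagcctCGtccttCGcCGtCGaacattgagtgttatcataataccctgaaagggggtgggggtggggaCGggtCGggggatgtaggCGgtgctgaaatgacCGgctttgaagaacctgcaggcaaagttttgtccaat
The most strongly bound, Hoxd8, held 6 CpGs in these bases, which is also the median of the 32817 promoters of the table. Hoxd8 has 2 start sites, and these bases lie before the upstream one. The 2091 bases that its peaks shared between replicates held 216 CpGs. Hoxd9 held 13, Hoxd12 10, Hoxa5 28, Hoxd13 31 and Hoxa13 35, and 5.95% of all promoters of the table held 30 or more. The number of CpGs in the 250 bases before these starts therefore did not order the 6 genes by score. The table has 22 of the 38 genes.

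SOX proteins bind the minor groove of DNA at short AT-rich words. Searched on both strands as 8 words (the pair AACAAAG with its variant AACAATG, the pair ATCAAAG with ATCAATG, the pair TACAAAG with TACAATG, and the pair TTCAAAG with TTCAATG), of which no 2 can match at 1 place on 1 strand, at least 1 was present in 4 of the 24 member promoters of the table (250 bases each), and in 21.8% of all promoters. The 2 members with the highest scores had such words in the bases that their peaks shared between replicates, and these are shown with 11 bases either side and the word in capitals. The Hoxd8 words lie upstream of its start at chr2:74704462-74704468 and chr2:74704472-74704478, both on the minus strand. The Hoxb9 words lie at chr11:96269667-96269673 (minus strand, upstream of the gene) and, inside the gene, at chr11:96271990-96271996 and chr11:96272053-96272059 (plus strand).
Hoxd8 upstream, first: tatcaaagcgaATCAAAGtcctgcttttt
Hoxd8 upstream, second: atcctgaccttATCAAAGcgaatcaaagt
Hoxb9 upstream: attttttaaagATCAATGcgggcgcccag
Hoxb9 inside, first: tgtcctgtctaATCAAAGagctggctacg
Hoxb9 inside, second: agagaggccggATCAAAGtaagttataaa
In the shared bases of the other 8 overlapping pairs, Hoxa4, Hoxa5 and Hoxd10 held 1 word each and Hoxa13, Hoxc5, Hoxc13, Hoxd3 and Hoxd9 held none. Among the promoters printed above, Hoxd8 held 2 words and Hoxd12, without a peak, held 1. Those of Hoxd9, Hoxa5, Hoxa13 and Hoxd13 held none. Over whole peaks in the 4 clusters, 54.9% in replicate 1 and 61.5% in replicate 2 held a word, beside 57.7% and 52.7% of all peaks of the lists. The difference was −2.80 percentage points in one replicate and 8.81 in the other, so it did not keep its sign. A match of letters is a description and not a measured site.

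A further 5 genes had a promoter peak in each replicate at places that did not overlap. Hoxa10, needed in the uterus and testis descent, scored 43.3 and 51.2, and Hoxc8, a gene of the lower cervical motor neurons, scored 32.6 and 48.3. Hoxb5 scored 42.2 and 31.2, Hoxb6 31.1 and 33.8, and Hoxc9 37.1 and 36.7. All of these scores lay below 60, and the starts of these genes were under a peak in no more than 1 replicate.

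At 14 genes only replicate 1 had a promoter peak. The highest scores among them were 58.9 at Hoxc4, 55.9 at Hoxa7 and 51.8 at Hoxd11, a gene of the forearm and kidney; the log2 ratios there were 3.51, 3.88 and 3.37. Hoxb8 and Hoxc11 both scored 45.5, and their log2 ratios were both 2.96. Hoxb2, a hindbrain gene, scored 42.2 (log2 ratio 2.88), and Hoxa9, Hoxb4 and Hoxd1 all scored 41.4 (3.13). Hoxc12 scored 40.2 (2.64), Hoxb3 37.9 (3.05) and Hoxa3, which is required for the thymus and parathyroid, 37.1 (2.56). Hoxb7 with 34.1 (2.48) and Hoxa6 with 31.1 (2.40) were the lowest. Identical values recurred because the caller assigned the same p, q and ratio to many regions: 51 of the 71 cluster peaks of replicate 1 and 12 of the 39 of replicate 2 shared all 3 values with another cluster peak, and 98.7% and 98.6% of all peaks did so within their lists.

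Hoxb13, which is active in the tail and the prostate, was the reverse case, with no peak in replicate 1 and a score of 36.7 (log2 ratio 3.07) in replicate 2. No promoter peak was listed in either replicate for 8 genes: Hoxa2, which patterns the second branchial arch, Hoxa11, needed for the uterus and forearm, Hoxb1, a gene of the hindbrain, Hoxc6, Hoxc10, Hoxd4, and the digit genes Hoxd12 and Hoxd13. With GENCODE start sites in place of RefSeq, Hoxc6 and Hoxd4 had a promoter peak in both replicates. A promoter that is not listed had no region above a q score of 30, and weaker signal is not in the files.

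By position on the body axis, a promoter peak was present in 8 of 11 anterior genes (paralogue groups 1 to 4) in replicate 1 and in 2 of 11 in replicate 2. Of the central genes (groups 5 to 8) 10 and 6 of 11 had one, and of the posterior genes (groups 9 to 13) 11 and 8 of 16. Other genes with the same CpG ratio as the posterior members had a peak in 89.3% and 80.9% of cases, those like the central members in 87.3% and 80.03%, and those like the anterior members in 71.1% and 60.1%. In replicate 2 all 3 stretches were therefore below their CpG level, the anterior genes at 18.2%, the central at 54.5% and the posterior at 50%. In replicate 1 the posterior genes (68.8%) were below it, and the anterior (72.7%) and central genes (90.9%) were slightly above. Within a paralogue group the members differed: of the 4 group 13 genes, Hoxa13 and Hoxc13 had overlapping peaks, Hoxb13 a peak in replicate 2 and Hoxd13 none.

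Promoter peaks in these lists were found mainly at CpG-rich starts, so each HOX gene was set beside all other genes in the same class of promoter CpG ratio (the observed over the expected number of CpGs in 1 kb around the start, in classes 0.1 wide). For a gene with several start sites, the highest ratio was used. The HOX genes had a median ratio of 0.696, from 0.257 at Hoxd4 to 1.04 at Hoxd8, and the other genes 0.538. With the other genes weighted to the CpG classes of the members, 83.5% had a promoter peak in replicate 1 and 74.6% in replicate 2. The HOX share differed from this by −7.16 percentage points in replicate 1 and −32.5 in replicate 2 (mean −19.8 ± 17.9, SD, n = 2). At a q score above 60 the level of other genes was 70.4% and 50.5%, and the HOX share differed by −54.6 and −47.8 points (mean −51.2 ± 4.79, SD, n = 2). In number of genes, 26.8 and 19.2 of 38 would be called at the rate of their CpG class, where 6 and 1 were. No test was made, since 1 condition with 2 replicates gives none.

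Ranked within its own CpG class from the lowest score (0) to the highest (100), the median HOX gene stood at the 10.1 percentile in replicate 1 and the 17.5 percentile in replicate 2. In replicate 1, 30 of the 38 were below the class median, 7 above it and 1 (Hoxd4) level with it at 0. In replicate 2, 28 were below, 1 (Hoxb13) was above and 9 were level at 0. Of the 7 above in replicate 1, 6 had a CpG ratio under 0.5 (Hoxa7, Hoxa9, Hoxb2, Hoxb3, Hoxb4 and Hoxc4), and the other was Hoxb9, at 211 beside a class median of 183. Hoxd8 was below its class even so, at 167 beside 354 and 77.7 beside 130.4.

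In median score the gap to other genes was widest at CpG-rich starts. For a CpG ratio of 0.7 or more, 17 of 19 HOX genes in replicate 1 and 11 of 19 in replicate 2 had a promoter peak, beside 97.4% and 92.9% of 9007 other genes. The median score there was 44.8 and 33.8 for HOX genes and 235 and 94.5 for the others. Above 60 there were 5 and 1 of the 19 HOX genes, beside 91.3% and 74.5%. For a ratio from 0.5 to 0.7, 6 and 4 of 9 HOX genes had a peak, beside 87.3% and 75.0% of 4675 others, and the medians were 32.6 and 0 beside 113 and 50.7. Under 0.5, 6 of 10 HOX genes had a peak in replicate 1 and 1 of 10 in replicate 2; weighted to the classes of these members, 53.0% and 38.6% of other genes did, so the difference was 7.02 and −28.6 points. Among genes with a promoter peak, 15 of 29 HOX genes (51.7%) in replicate 1 and 7 of 16 (43.8%) in replicate 2 had a start site under a peak, beside 88.2% of 16388 and 86.1% of 14294 other genes with a promoter peak. These other genes were matched to the HOX genes neither by CpG class nor by score.

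**Figure D2:**
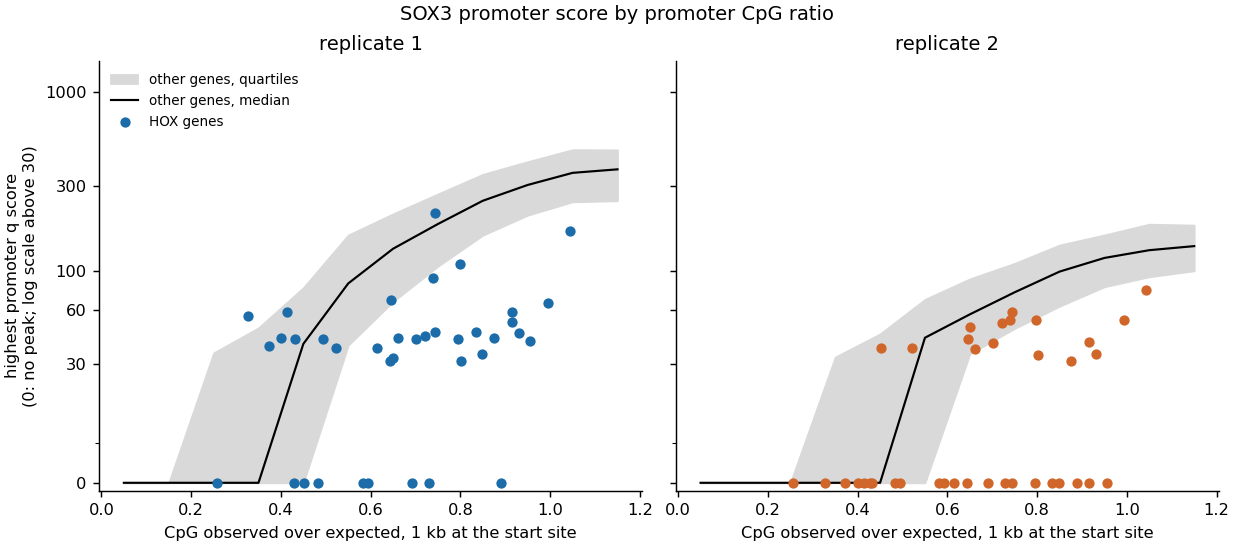
Each HOX gene (coloured points) is placed by the CpG ratio of its promoter and its highest promoter q score (0 for no peak, log scale above 30), over the median (line) and quartiles (grey) of the other genes of each CpG class. In both replicates the points above a ratio of 0.7 lie mostly under the grey band, and Hoxb9 in replicate 1 is the point above the line there.

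The direction held in each cluster for the stricter score. Above a q score of 60, HoxA had 1 and 0 of 10 genes (74.7% and 54.9% of other genes in its CpG classes), HoxB 1 and 0 of 10 (60.8% and 42.5%), and HoxC 0 and 0 of 9 (69.2% and 45.9%). HoxD had 4 and 1 of 9, beside 77.5% and 58.9%. At the deposited threshold HoxB in replicate 1 was the exception, with 8 of 10 genes (80%) beside 76.6%. For promoters of 5 kb either side, the difference over all 38 genes in replicate 1 turned to 1.29 points while replicate 2 remained at −19.6.

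The clusters as a whole were searched from the first to the last listed gene plus 20 kb on each side: chr6:52142417-52280880 (HoxA), chr11:96174316-96388253 (HoxB), chr15:102901131-103056852 (HoxC) and chr2:74648225-74785142 (HoxD), 645 kb in all. They held 71 peaks in replicate 1 (15 in HoxA, 26 in HoxB, 15 in HoxC and 15 in HoxD) and 39 in replicate 2 (10, 13, 6 and 10). This was 11.01 and 6.05 peaks per 100 kb, beside 2.20 and 1.47 over the genome, a density 4.99 and 4.12 times the genome's (mean 4.56 ± 0.617, SD, n = 2). Peaks covered 11.8% and 5.94% of the windows and 2.37% and 1.38% of the genome. The windows are also rich in CpGs, from 18.3 per kb in HoxC to 25.9 in HoxA where the genome has 8.26.

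Agreement between the replicates was counted for the cluster peaks. Counting a peak as matched when 1 peak of the other replicate covered at least 50% of it, 9 of 71 (12.7%) of replicate 1 and 15 of 39 (38.5%) of replicate 2 were matched, beside 25.1% and 48.4% of all peaks. A q score above 60 was reached by 11 of 71 (15.5%) and 4 of 39 (10.3%), beside 27.1% and 23.2% of the lists. Median scores (42.2 and 41.9) and median log2 ratios (2.95 and 2.80) were close to those of the lists (41.4 and 39.5; 2.85 and 2.77).

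**Figure D3:**
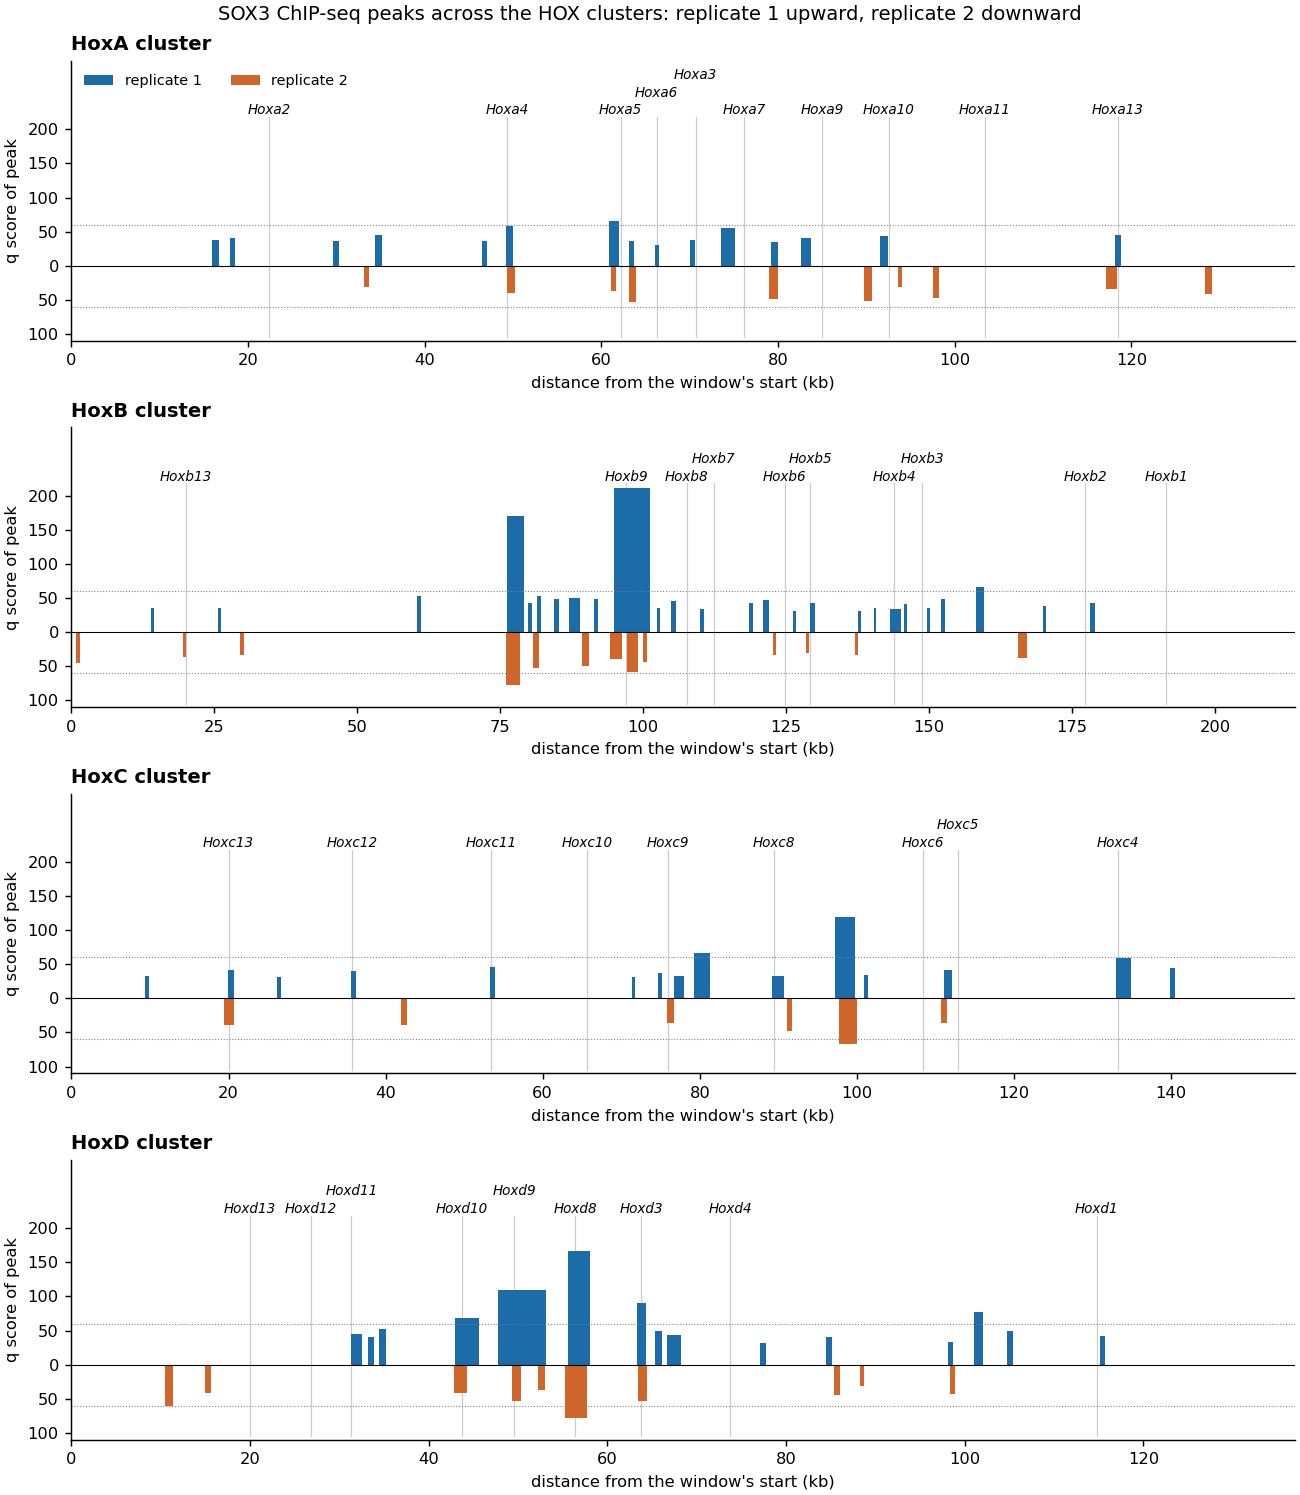
Every SOX3 peak in the 4 cluster windows is drawn at its distance in kb from the window's start and at its width (at least 0.5 kb for visibility), with its q score upward for replicate 1 and downward for replicate 2; grey lines are gene starts (the lowest coordinate where a gene has several) and dotted lines mark 60. Tall peaks in both replicates stand at Hoxd8, in the gap between Hoxc8 and Hoxc6, and about 20 kb before Hoxb9.

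The other tall peaks lay away from HOX starts. The peak before Hoxb9 covered the start of Gm53, a long noncoding RNA gene whose start is 19670 bases from that of Hoxb9, and scored 170.2 in replicate 1 and 77.3 in replicate 2. Outside 2 kb of every annotated start there were 23 peaks in replicate 1 and 14 in replicate 2, and these formed 5 overlapping pairs. The strongest pair was intergenic between Hoxc8 and Hoxc6 (chr15:102998304-103000901 in replicate 1 and chr15:102998888-103001181 in replicate 2), with scores of 119.8 and 66.5, 2014 shared bases and 100 and 90 CpGs; its nearest start was that of Hoxc8, 7765 and 8349 bases away. The second, in an intron of Gm53, scored 52.2 and 53.3. Another lay between Hoxa7 and Hoxa9 with 34.4 and 48.8. The last 2, in the last exon of Hoxd3 (32.6 and 42.4) and between Hoxb5 and Hoxb4 (31.1 and 34.0), were weak.

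The windows hold 27 other annotated genes, 20 of them for long noncoding RNAs, 6 for microRNAs and 1, Evx2, for a protein. Of the 27, 19 (70.4%) had a promoter peak in replicate 1, 8 (29.6%) in replicate 2 and 6 (22.2%) in both, beside 62.7%, 54.7% and 52.2% of all genes. Hottip, an RNA gene beside Hoxa13, shared the peaks of that gene (44.8 and 34.0), and Hotair, transcribed from HoxC, had none. Among the microRNA genes, Mir196a-1 in HoxB, whose product targets Hoxb8, scored 49.8 and 50.02, from peaks that did not overlap between the replicates. Mir10a, Mir10b, Mir196a-2 and Mir615 had a peak in replicate 1 only, at 31.1 to 42.2, and Mir196b had none.

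The same comparison was made along the clusters in 1 kb bins, each set beside all bins of the genome with the same number of CpGs. Of 648 HOX bins, 148 (22.8%) in replicate 1 and 78 (12.04%) in replicate 2 were overlapped by a peak, where 4.54% and 2.83% of all bins were. Other bins of equal CpG number were hit in 19.5% and 14.8% of cases, so the difference was 3.34 points in one replicate and −2.78 in the other. In bins with 40 or more CpGs, 58.4% and 32.7% of HOX bins were hit, beside 68.2% and 58.3% of like bins elsewhere. In bins with 10 to 39 CpGs the HOX bins were at 23.9% and 12.1% (17.0% and 11.1% elsewhere); in replicate 2 this was split, with 1.90% (3.80% elsewhere) for 10 to 14 CpGs, 2.13% (7.11%) for 15 to 19, 18.2% (11.7%) for 20 to 29 and 25.7% (23.2%) for 30 to 39. In bins with under 10 CpGs they were at 6.01% and 3.004% (1.75% and 1.01%), resting on 14 and 7 bins. With only peaks above a q score of 60, the difference over all bins was −7.05 and −6.52 points.

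**Figure D4:**
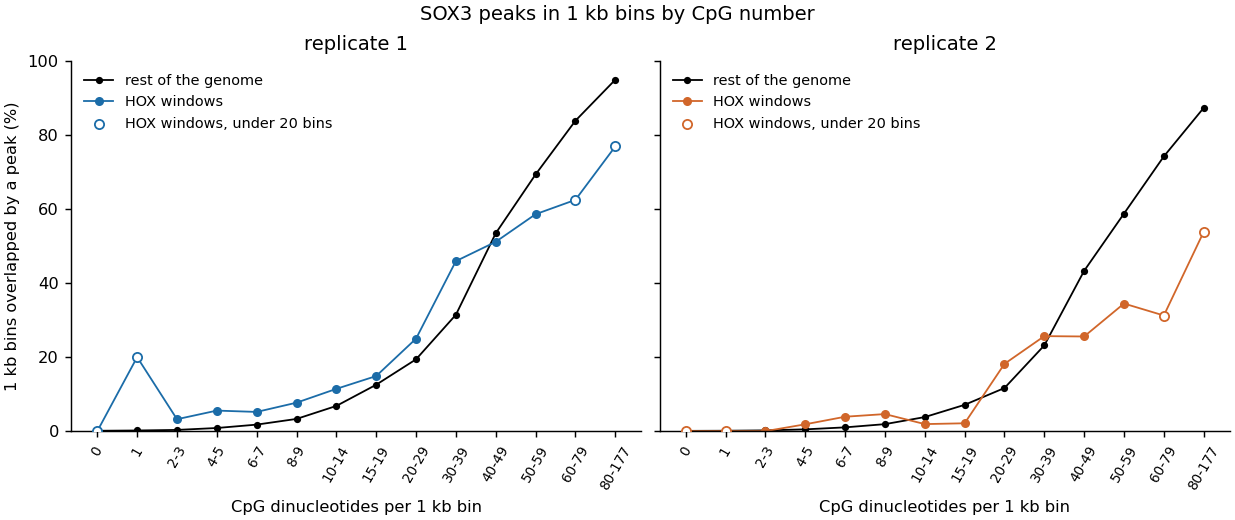
The percentage of 1 kb bins overlapped by a SOX3 peak is plotted against the number of CpGs in the bin for the HOX windows (coloured) and the rest of the genome (black), in each replicate. The coloured line is under the black one in every class from 40 CpGs upward in both replicates; open circles are classes with under 20 HOX bins.

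Genes that act with HOX genes were listed for comparison: 2 Evx genes at the cluster ends, 6 ParaHox genes (the sister homeobox genes Gsx1, Gsx2, Pdx1, Cdx1, Cdx2 and Cdx4), 9 TALE homeodomain cofactors (Pbx, Meis and Pknox genes), 5 subunits of the MLL and COMPASS complexes that keep HOX genes active, and 6 retinoid receptors, through which retinoic acid induces HOX genes. High scores were rare in the Evx and ParaHox lists. Of the 6 ParaHox genes, 4 had a promoter peak in replicate 1, 1 in replicate 2 and 0 in both, beside 62.7%, 54.7% and 52.2% of all genes. None scored above 44.8, where 69.1% and 46.1% of other genes in their CpG classes passed 60. Evx1 scored 39.2 and 40.8, and Evx2 had no peak in replicate 1 and scored 60.1 in replicate 2. In the CpG classes of the Evx genes, 84.7% and 62.1% of other genes passed 60.

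All 9 TALE cofactors and all 5 activators had a promoter peak in both replicates, beside 52.2% of all genes. Above 60 there were 7 and 5 of the 9 TALE genes, near the 70.1% and 49.7% of other genes in their CpG classes. Pknox1 scored 333 and 165, Meis1 197.8 and 85.1 and Pbx3 120.6 and 65.5. The 5 activator genes all passed 60 in both replicates, beside 86.3% and 67.9% in their CpG classes, from Rbbp5 with 67.9 and 93.5 to Ash2l with 335 and 89.5; Kmt2a, the MLL methyltransferase itself, scored 264 and 187. Of the retinoid receptors, 5 of 6 passed 60 in both replicates, beside 77.8% and 57.1% in their CpG classes, with 746 and 298 at Rxrb, and Rxrg had no peak. The medians of these 3 lists lay between 120.6 and 262 in replicate 1 and between 65.5 and 97.9 in replicate 2. These are short lists given as values, with no test of their difference from the HOX genes.

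**Figure D5:**
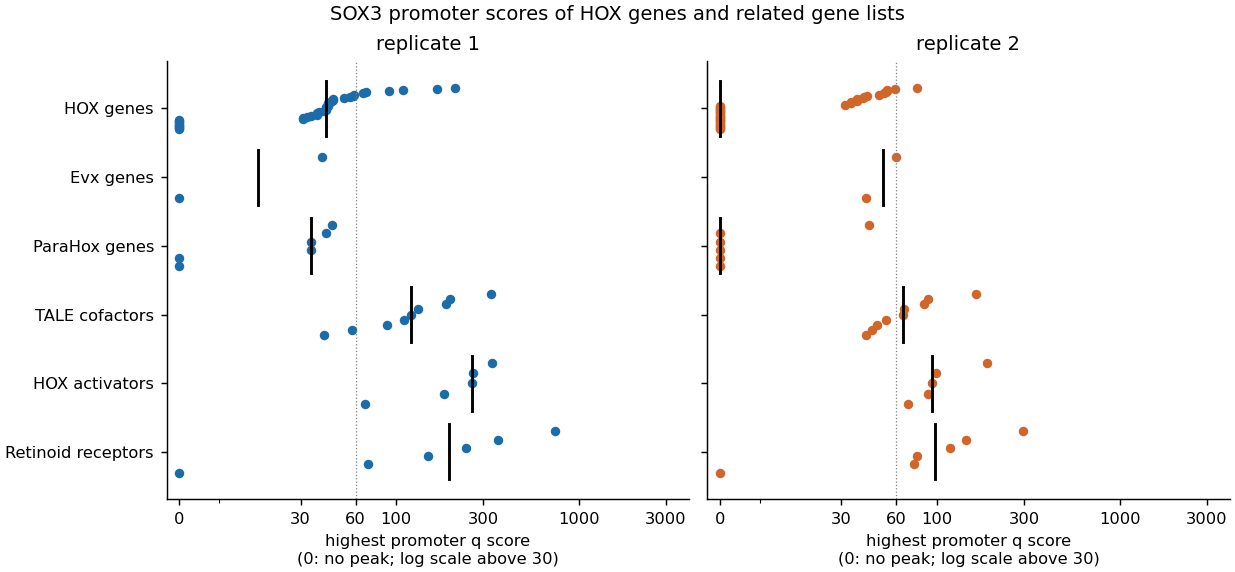
Each point is 1 gene at its highest promoter q score (0 for no peak, log scale above 30) in replicate 1 (left) and replicate 2 (right), by list, spread vertically only to separate the points; black bars are medians and the dotted line marks 60. HOX, Evx and ParaHox genes lie at or left of the line apart from 6 HOX genes in replicate 1 and Hoxd8 and Evx2 in replicate 2, while most genes of the other lists lie right of it in replicate 1.

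The SOX3 ChIP-nexus lists held 111 regions in replicate 1 and 19 in replicate 2, and 0 of them lay in the 4 cluster windows in either replicate. The windows are 645 kb of a genome of 2648 Mb, so lists this short are too small to show presence or absence of binding there.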

How the data were processed

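SOX3 ChIP-seq peaks of P7 mouse testis were analysed per replicate. The authors aligned reads to mm10 with Novoalign (reads with several places went to 1 at random), removed duplicates with Picard and called peaks in each replicate with USeq. The deposited peak lists give, without a header, a p score and a q score, the p-value and q-value on a scale of minus 10 times log10 and kept above 30 for q, and a log2 ratio of ChIP over input; these meanings were read from the values and the caller's layout. The deposited ChIP-nexus lists give −log10 of the MACS q-value. From the files were computed promoter peaks (2 kb either side of each curated RefSeq start, GRCm38.p6), CpG ratios in 1000 bases, cluster windows, 1 kb bins, replicate matches (50% overlap) and SOX words, with Python 3.11.15, numpy 2.4.6 and pandas 2.3.3. The overlap code was tested on simulated data against bedtools 2.31.1. A peak within reach of several start sites counted for each of their genes.

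The 38 genes and the comparison lists were chosen with earlier results of these data known. Values are given in full for genes with overlapping promoter peaks in both replicates (up to 12, of which there were 10) and for those with a peak in 1 replicate; the rest by count, name and range. Up to 5 peaks outside promoters were named by mean rank. Groups came from the labels. With 1 condition and 2 replicates no test was made; mean and SD are over replicates and measure the spread between these 2 samples. Alternatives varied the q score, promoter window, start sites, annotation, CpG measure, gene background, flanks, overlap, bins, motif and replicate. The other samples of the series were not analysed here.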

Additional observations from a re-analysis of the deposited data

How the results depend on the processing

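Of 57 values recomputed for the 6 comparisons, 45 stayed within the spread between replicates (for the number of genes, within 1.5 times) and 12 moved. A value with 1 replicate left out cannot lie outside that spread, so those values could not move, the number of genes aside. A change of sign could be called only for a difference larger than the spread. That held for the CpG ratio comparison alone, and its sign did not change. The stricter q scores moved most. The number of HOX genes with a promoter peak in both replicates fell from 15 to 5 above 45 and to 1 above 60, and the difference from other genes of equal CpG ratio went from −19.8 to −43.5 and −51.2 points. As means over replicates, the bin difference went from 0.280 to −4.91 and −6.79 points and the cluster density above 60 was 2.34 times the genome's. Above 60 the clusters held 11 peaks in replicate 1 and 4 in replicate 2. Of these, 27.3% and 75% were matched (mean 51.1%, from 25.6%). The SOX word difference above 60 was −2.73 points in replicate 1 and 33.3 in replicate 2 (mean 15.3, from 3.005), so the replicates had opposite signs. Cluster density was 5.55 times without flanks and 3.15 with 100 kb flanks. Leaving out 1 replicate gave 16 to 29 genes, −32.5 to −7.16 points by CpG ratio, a density of 4.12 to 4.99, −2.78 to 3.34 points for bins and −2.80 to 8.81 points for SOX words, so the bin and word differences have no settled sign; a match between replicates then has no value. Cutting replicate 1 to the 38832 highest scores, an alternative chosen after seeing the data, left 13 genes in both replicates and −23.5 points. GENCODE start sites gave 20 genes and a CpG-matched difference of −11.8 points (−2.29 in replicate 1 and −21.3 in replicate 2), with Hoxa7, Hoxa9, Hoxb3, Hoxc6 and Hoxd4 then peaked in both replicates. Per gene, 4 of the 38 kept their number of bound replicates under all 8 alternatives: Hoxd8, and Hoxa11, Hoxb1 and Hoxc10 with none. The cause of these changes was not tested. No paired analysis was possible because the result comes from 1 condition and no test: SOX3 ChIP-seq and ChIP-nexus share replicate numbers, but ChIP-nexus has 0 regions in the windows.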
